A study of Mus musculus with 2 samples.

Results

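Prom1 encodes prominin-1, the pentaspan membrane glycoprotein that carries the CD133 epitope. CD133 protein was the sorting marker of the cells described here, and the gene was chosen for that reason and not for its transcript levels. It is 1 of 24071 genes listed in the 2 count tables, and its counts are given below for 20237 endothelial-like, 5832 ependymal-like and 183 mural-like cells of 30236 cells in all. Prominin-1 sits on membrane protrusions such as microvilli and cilia and binds cholesterol. In the central nervous system it is known as an apical marker of neuroepithelial and ependymal cells, and antibodies to CD133 are used to isolate neural stem cells and endothelial progenitors.

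Both libraries were made from spinal cords of adult C57BL/6j mice, 10 to 12 weeks old, of the genotype Clec9a cre/cre R26 LSLtdTomato/LSLtdTomato. In these animals Cre is expressed from the locus of Clec9a, which encodes the dendritic cell receptor DNGR-1, and a cell that has expressed it, or descends from one that has, keeps tdTomato. Live CD45- CD133+ cells were sorted by tdTomato into a traced and a non-traced sample, and each gave 1 library of single-cell 3′ RNA sequencing. Control animals lacking Cre and CD133- cells were not analysed here, so all levels are levels within a CD133+ gate. The number of animals behind each library is not given in the sources used here. With 1 library per group, no difference below has a replicate check or a test, and the 95% intervals, exact Poisson for summed counts and exact Clopper-Pearson for shares of cells, cover counting error only.

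There were 25411 non-traced and 4825 traced cells, with medians of 7218 and 8566 unique molecular identifiers (UMIs, counted transcripts) per cell. The 2 libraries shared 42 cell barcodes, and leaving out the cells that carry them moved no Prom1 difference beyond its counting interval. All 10 endothelial markers (Cldn5, Cdh5, Pecam1 and others) were found in at least 50% of the cells of each endothelial-like cluster. Of the 12 ependymal markers (Foxj1, Rsph1, Tmem212 and others), 12 reached 1 CPM (1 UMI per 1000000) in the ependymal-like cells of either library. Cells were clustered without Prom1, and names come from marker lists.

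Prom1 was far more abundant in endothelial-like than in ependymal-like cells. In the non-traced library the endothelial-like cells held 58917 Prom1 UMIs, a level of 335 CPM (332 to 338, 20173 cells), and the ependymal-like cells held 212, a level of 25.1 CPM (21.8 to 28.7, 1115 cells). The endothelial level was 13.4-fold that of the ependymal-like cells, a difference of 3.69 on the log2(CPM + 1) scale, and 19.5% of 10510 genes tested were at least 2-fold higher in the endothelial-like cells. In the traced library the same order held within its own cells, with 303 CPM (263 to 347) from 206 UMIs in 64 endothelial-like cells and 9.81 CPM (8.93 to 10.8) from 449 UMIs in 4717 ependymal-like cells. Those 64 cells were 1.33% of the traced library and held 31.4% of its Prom1 UMIs. They also carried 2694 CPM of the 13-gene mural list and 666 CPM of the ependymal list, and the part of these in their Prom1 level was not tested.

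The 16 groups of at least 15 cells fell into 2 blocks. The 6 endothelial groups lay between 286 and 379 CPM. The ependymal and mural groups lay at 36.5 CPM or below, and no interval of one block reached the other. Within the upper block the interferon-responding cells (379 CPM) and the arterial cells (365 CPM) could not be ordered beyond counting error. The arterial cells lay above the capillary cells (341 CPM), and the capillary cells above the endothelial-like cells that took no subtype name (314 CPM), beyond counting error. With finer clusters (Leiden resolution 1.5) the latter order was reversed, with 334 CPM in capillary cells and 393 CPM in cells with no subtype name. The traced endothelial-like cells (303 CPM) overlapped the capillary cells, the unnamed endothelial-like cells and the venous cells (286 CPM). Within the lower block each group overlapped the next in order, from the midline cells of the non-traced library (36.5 CPM) and the cycling cells of the traced library (30.6 CPM) at the top to the remaining traced ependymal-like cells (7.91 CPM) and 2 very small non-traced groups at the bottom.

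**Figure D1:**
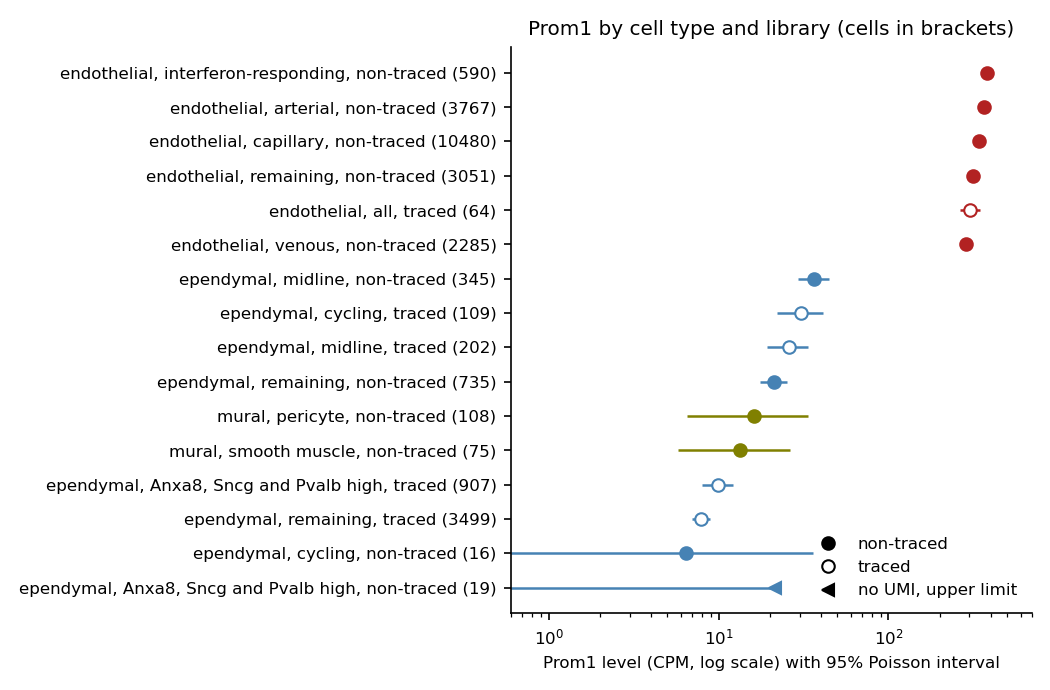
Prom1 level in CPM (log axis) for each cell type of each library, with the exact 95% Poisson interval; filled points are the non-traced and open points the traced library, and the number of cells is in brackets. The 6 endothelial groups lie between 286 and 379 CPM and the ependymal and mural groups at 36.5 CPM or below; the arrow is the upper limit of a group with no UMI.

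Counted per cell, the arterial cells of the non-traced library had a median of 3 Prom1 UMIs, the capillary cells 2 and the venous cells 3. At least 1 UMI was found in 84.9% of arterial, 82.0% of capillary and 87.7% of venous cells. The venous cells were the deepest of the 3, with a median of 10597 UMIs per cell against 8101 in arterial and 6313 in capillary cells. Thinned to 1000 UMIs per cell, the shares took the order of the CPM, at 27.4% (26.0 to 28.9) of arterial, 27.1% (26.3 to 28.0) of capillary and 23.9% (22.2 to 25.7) of venous cells. The arterial and capillary intervals overlapped, and only the venous cells lay apart.

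In ependymal-like cells the Prom1 transcript was found in few cells, although every cell had passed a gate on the protein. Of the traced ependymal-like cells 91.8% had no Prom1 UMI, 7.23% had 1, 0.700% had 2 and 0.254% had 3 or more. Of the non-traced ependymal-like cells 84.2% had none. At 1000 UMIs per cell the shares with a UMI were 0.912% (0.660 to 1.23) in the traced and 2.60% (1.75 to 3.71) in the non-traced ependymal-like cells. Mural-like cells, set beside them as the type in which Prom1 is not a known marker, had 1.09% (0.133 to 3.89) at the same depth and 7.65% unthinned, with a median of 4923 UMIs per cell against 8581 in the traced ependymal-like cells. A share of cells with a UMI thus did not set the traced ependymal-like cells apart from the mural-like cells. Prom1 is set against endothelial transcripts further on, which concerns RNA of endothelial origin only, and other sources were not tested.

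**Figure D2:**
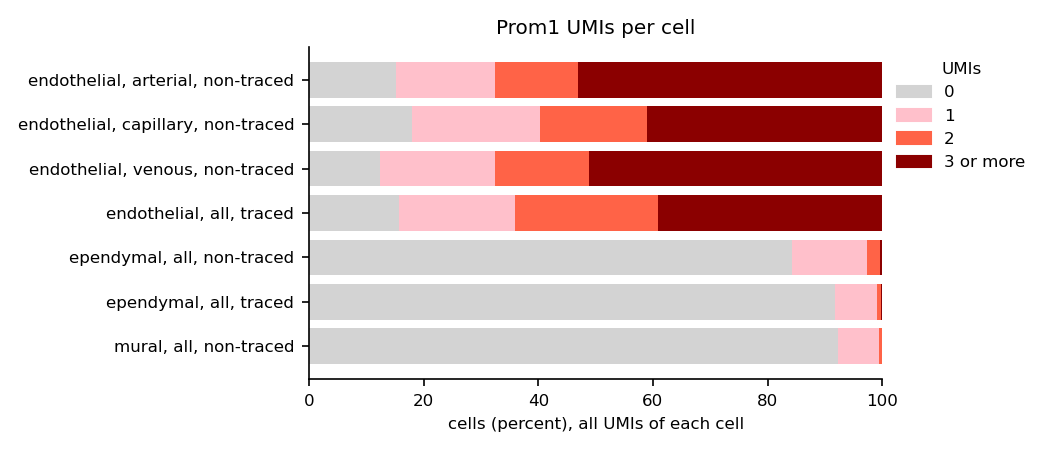
Share of cells (percent) with 0, 1, 2 or at least 3 Prom1 UMIs, with all UMIs of each cell used and no thinning. Arterial, capillary and venous cells without a Prom1 UMI make up 15.1%, 18.0% and 12.3% of their groups, against 84.2% and 91.8% of the non-traced and traced ependymal-like cells and 92.3% of the mural-like cells.

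Along the vascular tree Prom1 varied by less than 2-fold between the named subtypes. Arterial cells (13776 UMIs, 3767 cells) had 365 CPM (359 to 371), capillary cells (27983 UMIs, 10480 cells) had 341 CPM (337 to 345), and venous cells (7753 UMIs, 2285 cells) had 286 CPM (280 to 293). The arterial level was 0.10 higher than the capillary level on the log2(CPM + 1) scale, where 3.16% of 8444 genes were at least 2-fold higher in arterial cells. The venous level was lower than the capillary level, a log2 difference of -0.25, where 0.456% of 8337 genes were at least 2-fold lower in venous cells. Neither difference reached 2-fold, and with finer clusters (Leiden resolution 1.5) the arterial difference was 0.019. Cells with Xist UMIs and cells with UMIs of Y-linked genes were both present, and the order arterial, capillary, venous was the same in the former (362, 336 and 273 CPM) and in the latter (369, 344 and 292 CPM).

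The clusters inside the arterial subtype differed more from each other than the subtypes did. In the 2607 cells of a cluster with Gkn3, Vegfc and Bmx among its leading genes Prom1 stood at 426 CPM (418 to 433), the highest of any cluster. Haemoglobin transcripts (Hbb-bs, Hba-a1) led the same cluster. A cluster of 660 cells led by Mgp and Gkn3, with Eln, the gene of elastin, among its first 10, had 254 CPM (241 to 266). A cluster of 500 cells led by S100a6 and Pi16, with Fbln5, a gene of elastic fibre assembly, had 168 CPM (156 to 180). The same order was found in cells with Xist UMIs (426, 245 and 159 CPM) and in cells with Y-linked UMIs (431, 277 and 175 CPM). In CPM the venous subtype was also uneven, with 290 CPM (283 to 296) in 2191 cells led by Icam1 and Vcam1, the leukocyte adhesion genes, and 193 CPM (165 to 223) in 94 cells led by Lrg1 and Ackr1. The 10 endothelial markers differed as well, at 21051 and 13599 CPM. For each 1000 UMIs of these markers the venous clusters had 13.8 (13.4 to 14.1) and 14.2 (12.1 to 16.4) Prom1 UMIs, which overlapped. The arterial clusters, in the order above, had 16.8 (16.5 to 17.1), 10.6 (10.1 to 11.1) and 8.96 (8.34 to 9.61).

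Capillary clusters lay between 306 and 392 CPM. The highest were 2 clusters with Cxcl12 among their leading genes, at 392 CPM (382 to 402, 1625 cells) and 378 CPM (367 to 389, 1688 cells). The lowest was a cluster of 2460 cells led by immediate early genes (Egr1, Nr4a1, Fosb), at 306 CPM (299 to 313). A small cluster of 65 cells led by Apln and Angpt2, genes of sprouting endothelium, had 254 CPM (218 to 296) and took no subtype name.

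The endothelial-like cells were also binned by their marker levels, with no use of the subtype clusters. With rising levels of the 12-gene arterial list (Bmx, Gkn3 and Gja5 among them) Prom1 went from 313 CPM in the 9511 cells below 250 CPM of the list to 381 CPM (373 to 388) in the 2671 cells between 1000 and 2500 CPM. It then went down to 288 CPM (275 to 302) between 5000 and 10000 CPM and to 158 CPM (144 to 174) in the 339 cells above 10000 CPM. Over the 8-gene capillary list (Mfsd2a, Rgcc and Cxcl12 among them) Prom1 was higher in each bin than in the one before, from 112 CPM (94.4 to 131) in the 187 cells below 250 CPM to 392 CPM (384 to 401) in the 2846 cells above 10000 CPM. Over the 10-gene venous list (Vwf, Slc38a5 and Nr2f2 among them) it stood at 347 CPM in the lowest bin and at 174 CPM (144 to 209) in the 76 cells between 5000 and 10000 CPM. For each 1000 endothelial UMIs these venous bins had 14.5 (14.3 to 14.7) and 12.0 (9.93 to 14.4) Prom1 UMIs, which overlapped. That ratio was 6.93 (6.29 to 7.61) in the top arterial bin and 5.31 (4.49 to 6.23) in the lowest capillary bin. The levels of all lists and of Prom1 are shares of the same cell totals, and the bins are given as a description.

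**Figure D3:**
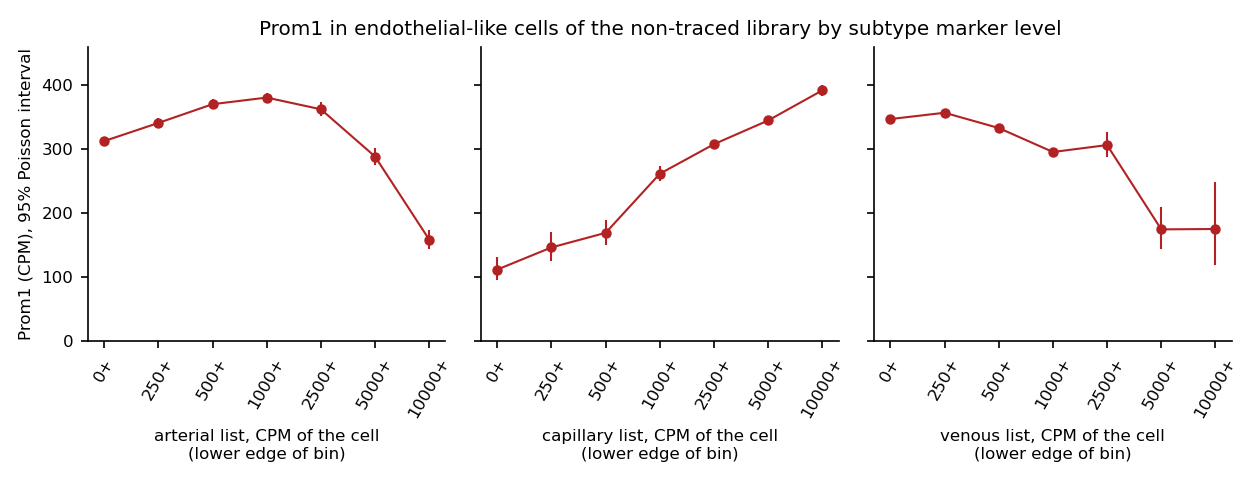
Prom1 level in CPM (linear axis from 0, with 95% Poisson intervals) in non-traced endothelial-like cells, binned by each cell's summed level of the arterial, capillary and venous marker lists; axis labels give the lower edge of each bin in CPM. Prom1 peaks at 381 CPM at middle arterial levels and reaches 158 CPM at the highest, while it is higher in each successive bin of the capillary list.

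The cells kept as mural-like, pericytes and smooth muscle cells that wrap the vessels, held hardly any Prom1. They were taken as the cells of mural clusters with little endothelial RNA, since most droplets with mural markers also held endothelial transcripts. Of 3104 cells in such clusters 183 lay under the limit of 0.236% of UMIs from the endothelial list, and 123 lay between 0.5 and 1.5 times that limit. The 108 pericyte cells held 7 Prom1 UMIs (16.3 CPM, 6.54 to 33.5) and the 75 smooth muscle cells held 8 (13.3 CPM, 5.75 to 26.2). Together they had 14.5 CPM (8.14 to 24.0), 23.5-fold below the capillary cells and -4.46 on the log2 scale, where 16.4% of 9498 genes were at least 2-fold lower in mural-like cells. Prom1 rose with endothelial content in the mural clusters, so this level and fold depend on the limit that selected the 183 cells.

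Prom1 in the mural clusters was set against endothelial transcripts. The non-traced endothelial-like cells had 14.3 Prom1 UMIs for each 1000 UMIs of the 10 endothelial markers. In cells of the mural clusters that ratio stayed between 11.6 and 17.1 in each bin of endothelial content that held a Prom1 UMI, while Prom1 itself went from 5.12 CPM (0.130 to 28.5) in the 29 cells with up to 0.05% endothelial UMIs to 341 CPM (331 to 350) in the 1337 cells with more than 2%. The 3 lowest of these bins held 1, 3 and 10 Prom1 UMIs. The mural-like cells had 13.2 per 1000 (7.41 to 21.8), and the endothelial ratio applied to their endothelial list would give 19.5 CPM in pericytes and 13.0 CPM in smooth muscle cells, against 16.3 and 13.3 measured. Both differences lay within the counting intervals of the measured levels, and the part of endothelial RNA in them was not tested.

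Ependymal-like cells did not follow that ratio. In the non-traced library the midline cells had 101 Prom1 UMIs per 1000 endothelial UMIs and the remaining ependymal-like cells had 50.7. In the traced library, where the endothelial list lay at 26.4 CPM against 398 CPM in the non-traced ependymal-like cells, the ratio was 372 per 1000. The 3795 traced ependymal-like cells with no endothelial UMI at all still had 344 Prom1 UMIs, or 9.74 CPM (8.73 to 10.8). In the non-traced library 78 ependymal-like cells had none, and they had 22.3 CPM (11.1 to 39.8) from 11 UMIs. Non-traced ependymal-like cells and droplets with ependymal and endothelial markers were also binned by endothelial share, which is the denominator of the ratio. The ratio was 91.3 per 1000 up to 0.05% and 40.6 per 1000 at 0.05 to 0.1%, where Prom1 stood at 25.3 and 27.3 CPM. It was 14.3 per 1000 from 4 UMIs in the bin of 0.1 to 0.2%. In those of 0.2 to 0.5%, 0.5 to 1% and 1 to 2% endothelial UMIs it was 15.7, 15.6 and 15.1 per 1000.

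**Figure D4:**
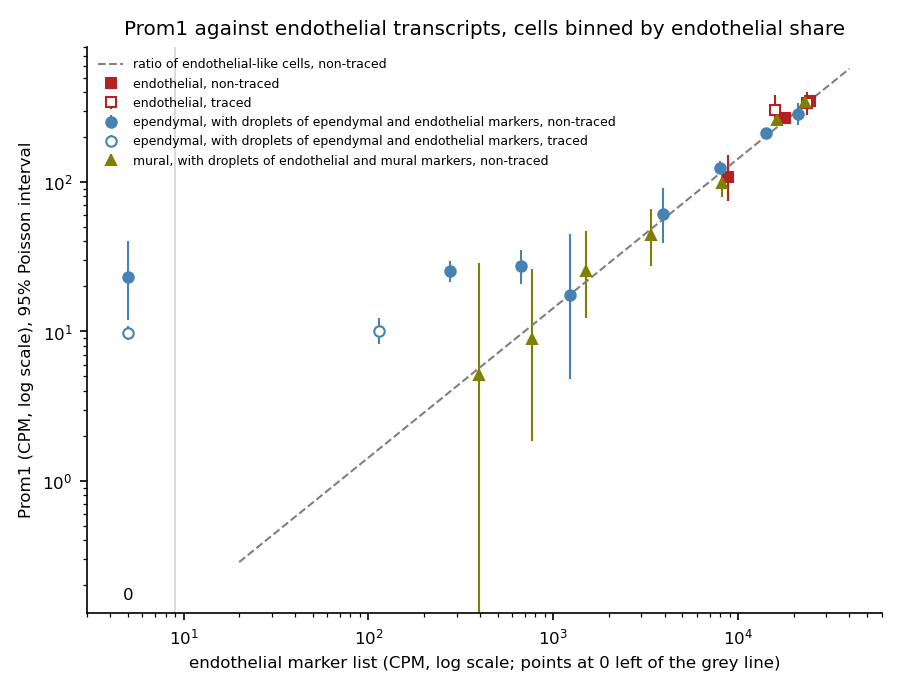
Prom1 (CPM, log axis, 95% Poisson interval) against the summed level of 10 endothelial markers (CPM, log axis, with 0 drawn left of the grey line) in cells binned by their endothelial share; bins with fewer than 20 cells or no Prom1 UMI are left out, and the dashed line is the ratio of 14.3 per 1000 found in non-traced endothelial-like cells. Cells of mural clusters lie along the line, while ependymal-like cells with few endothelial UMIs lie above it, at 25.3 and 27.3 CPM in the non-traced and 9.74 and 10.1 CPM in the traced library.

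Among ependymal-like cells Prom1 was highest in the midline and in the mitotic cells. Midline cells were named from a list of genes of the dorsal and ventral poles of the canal and led by Ucma, itself on the list. Of the 11 listed genes 3 reached 1.5-fold, the minimum for a name. The midline cells had 53 Prom1 UMIs in 202 traced cells, or 25.8 CPM (19.4 to 33.8). The 3499 remaining traced cells, which met no subtype list, had 259 UMIs, or 7.91 CPM (6.98 to 8.93). The midline level was 3.27-fold that of the remaining cells, 1.59 on the log2 scale, where 3.21% of 9674 genes were at least 2-fold higher in midline cells. In the non-traced library the midline cells stood at 36.5 CPM (29.4 to 44.8, 92 UMIs, 345 cells) and the remaining cells at 21.2 CPM (17.6 to 25.4, 119 UMIs, 735 cells), a log2 difference of 0.76 that did not reach 2-fold, and 2.51% of 9664 genes did. In non-traced cells without an endothelial UMI the difference was 1.61, from 7 UMIs in 29 midline and 4 in 47 remaining cells. In traced cells without an endothelial UMI the 2 levels were 26.0 CPM (19.0 to 34.6, 182 cells) and 7.38 CPM (6.35 to 8.53, 2767 cells). Xist-positive and Y-linked-positive traced midline cells had 25.9 and 26.3 CPM, against 8.41 and 7.77 CPM in the remaining cells. Binned by midline-list UMIs in place of clusters, 107 traced cells with at least 10 had 18.7 CPM (12.8 to 26.2). The 624 cells with none had 10.8 CPM (8.06 to 14.1), which overlapped. The former were deeper, with a median of 16309 UMIs per cell against 7747. At 1000 UMIs per cell 2.80% (0.582 to 7.98) of them had a Prom1 UMI, against 0.962% (0.354 to 2.08).

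The 109 cycling cells of the traced library had 42 Prom1 UMIs, or 30.6 CPM (22.1 to 41.4), which was 3.87-fold the level of the remaining cells and 1.83 on the log2 scale. In cells with Xist UMIs the cycling level was 20.4 CPM (6.62 to 47.6, 5 UMIs, 24 cells) and the log2 difference 1.19, and in cells with Y-linked UMIs they were 33.8 CPM (23.0 to 48.0, 31 UMIs, 67 cells) and 1.99. Of 10008 genes 6.72% were at least 2-fold higher in cycling cells. The 2 clusters inside this group differed. The 44 cells led by Hist1h1b, Mki67 and Top2a, genes of chromosome condensation and mitosis, had 50.6 CPM (34.6 to 71.4, 32 UMIs). The 65 cells led by Stmn1, Hells and Mcm3 had 13.5 CPM (6.50 to 24.9, 10 UMIs). Lig1, Pcna and Mcm5, genes of DNA replication, were also among the leading genes of these 65 cells. Binned by list UMIs in place of subtype clusters, the 28 traced ependymal-like cells with at least 10 UMIs of the mitotic list had 67.3 CPM (45.4 to 96.0), and 13 of them carried Prom1, while the 3564 cells with none had 8.87 CPM (7.88 to 9.95). The cells with at least 10 UMIs were also deeper, with a median of 14091 UMIs per cell against 8404. At 1000 UMIs per cell 3 of these 28 cells had a Prom1 UMI (10.7%, 2.27 to 28.2). The share was 0.786% (0.523 to 1.13) in the cells with no UMI of the list. In cycling cells without an endothelial UMI the level was 36.0 CPM (24.9 to 50.3, 79 cells). The non-traced library held only 16 cycling cells with 1 Prom1 UMI, 6.41 CPM (0.162 to 35.7), and no comparison could be made there.

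The cells high in Anxa8, Sncg and Pvalb had 9.90 CPM (8.01 to 12.1, 907 cells) in the traced library, and their interval overlapped that of the remaining cells. In the non-traced library 0 of 19 such cells had a Prom1 UMI, and 3 counts over their total would be 17.4 CPM. The clusters of the remaining traced cells lay between 5.87 and 9.95 CPM where they held at least 400 cells. A cluster led by Hoxa10, Hoxd10 and Hoxc10, genes of caudal identity, was among them with 7.93 CPM (5.88 to 10.5, 605 cells).

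**Figure D5:**
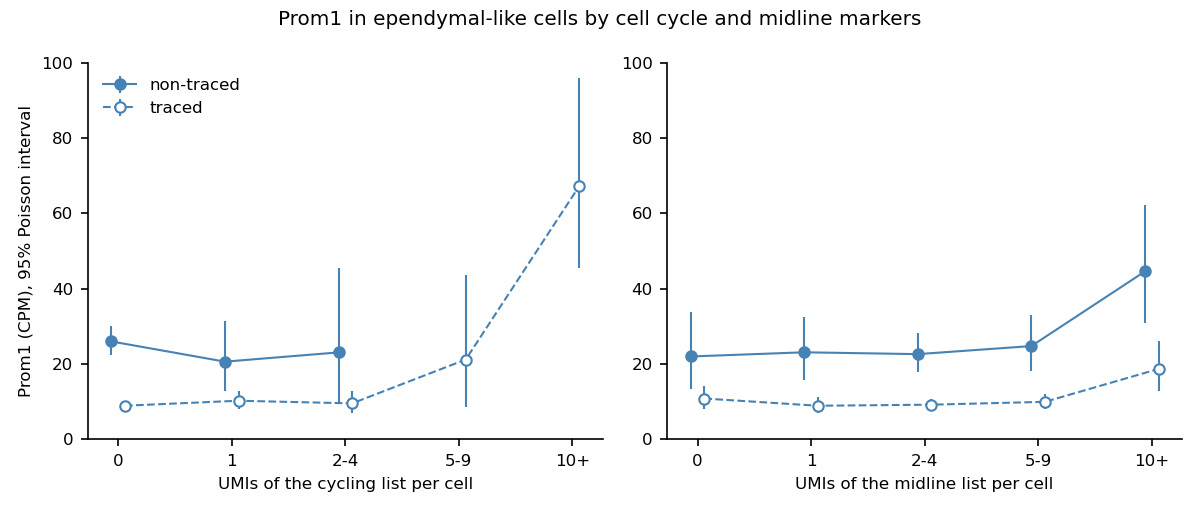
Prom1 level in CPM (linear axis from 0, 95% Poisson interval) in ependymal-like cells by the number of UMIs of the mitotic list (left) and of the midline list (right) in each cell; filled points are the non-traced and open points the traced library, and bins with fewer than 20 cells are left out. Traced cells with at least 10 mitotic UMIs reach 67.3 CPM against 8.87 CPM in those with none. For the midline list the traced levels are 18.7 CPM (12.8 to 26.2) against 10.8 CPM (8.06 to 14.1). The non-traced levels are 44.6 CPM (30.9 to 62.3) against 22.0 CPM (13.4 to 33.9), and the intervals overlap in both libraries.

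Traced ependymal-like cells had less Prom1 than non-traced ones. The levels were 9.81 and 25.1 CPM, a log2 difference of -1.27, and 1.32% of 9569 genes were at least 2-fold lower in the traced library. Midline cells, which had more Prom1, made up 202 of the 4717 traced and 345 of the 1115 non-traced ependymal-like cells. In midline cells alone the levels were 25.8 and 36.5 CPM and their intervals overlapped. In the remaining cells they were 7.91 and 21.2 CPM and did not overlap. These remaining cells lay in different clusters in the 2 libraries. Of the 735 non-traced cells, 236 were in a cluster led by Zfp36, Junb and Fosb (18.7 CPM) and 471 in one with the endothelial genes Ly6c1, Flt1 and Cldn5 among its leading genes (22.7 CPM), and these clusters held 8 and 2 traced cells. Endothelial RNA moved with the library. At the endothelial ratio it would carry 5.99 CPM of Prom1 in the remaining non-traced cells and 0.421 CPM in the traced ones, which left 15.2 and 7.49 CPM above that amount. In all ependymal-like cells with no endothelial UMI the levels were 9.74 CPM (8.73 to 10.8) in the traced and 22.3 CPM (11.1 to 39.8) in the non-traced library, which did not overlap, and the log2 difference was -1.12. Midline cells were 182 of these 3795 traced and 29 of these 78 non-traced cells, so the 2 sets differed in make-up. Their midline levels were 26.0 CPM (19.0 to 34.6) and 41.5 CPM (16.7 to 85.5), and the intervals overlapped. The remaining cells without an endothelial UMI had 12.9 CPM (3.51 to 33.0) from 4 UMIs in 47 non-traced cells. In 2767 traced cells they had 7.38 CPM (6.35 to 8.53), and these intervals also overlapped. Tracing and library cannot be told apart, since each sort was 1 library. In endothelial-like cells the levels of 303 CPM (traced) and 335 CPM (non-traced) overlapped within counting error.

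Across the 14 groups of at least 50 cells, the 10 genes whose log2(CPM + 1) followed Prom1 most closely, among 10355 genes, had Pearson correlations of 0.978 to 0.994. They were Abcc4, an efflux transporter, the long non-coding RNA Bvht, the calcium-binding protein gene S100a16, the aquaporin gene Aqp11, the adhesion receptor gene Adgrg1, Gpd2 of the mitochondrial glycerol phosphate shuttle, the beta-catenin gene Ctnnb1, the tetraspanin gene Tspan9, the orphan receptor gene Gpr160 and Yipf1. Each was higher in all 6 endothelial groups than in any ependymal or mural group. Among traced ependymal-like cells Adgrg1 had 33.6 CPM in cycling, 12.2 CPM in midline and 11.1 CPM in remaining cells, so that its midline level lay close to that of the remaining cells where the Prom1 level was 3.27-fold higher. Other genes of the 10 were higher in midline than in remaining cells. Abcc4 had 7.31 and 1.47 CPM, and S100a16 had 13.2 and 5.47 CPM. Aqp11 had 3.90 and 1.44 CPM, and Tspan9 had 21.4 and 9.16 CPM. Bvht (10.7 and 7.42 CPM), Ctnnb1 (208 and 167 CPM) and Yipf1 (43.4 and 38.9 CPM) differed less. Gpd2 (10.2 and 11.4 CPM) and Gpr160 (0 and 0.0305 CPM) were not higher in midline cells. The groups share libraries and a common split between endothelial and other cells. Adgrg1 was the only 1 of the 10 genes that a rank correlation (Spearman) also placed among its first 10, where Yipf1 tied with the last at 0.934.

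Genes that accompany prominin-1 in membranes or in marker panels did not share a single direction between endothelial-like and ependymal-like cells of the non-traced library, where 19.5% of all genes were at least 2-fold higher in endothelial-like cells and 27.2% at least 2-fold lower. Of the microvillus and apical membrane list, 7 of 14 measured genes were higher and 5 lower, with a median log2 difference of 1.49 against -0.08 over all genes. The higher ones included Podxl (382 against 28.1 CPM), a sialomucin of apical membranes, and the ezrin relative Msn (317 against 73.4 CPM). The lower ones included Ezr itself (26.3 against 500 CPM) and the microvillar actin bundler gene Espn (0.370 against 17.4 CPM). Of the family and partner list 2 of 4 were higher and 2 lower (median 0.15). Ttyh1, of the tweety family of membrane proteins, had 0.592 CPM in endothelial-like and 136 CPM in ependymal-like cells, and its relative Ttyh2 had 67.7 and 13.6 CPM. The paralogue Prom2 had 0 UMIs in either, and 3 counts over their totals would be 0.0171 and 0.355 CPM. Of the raft and ganglioside list 1 of 6 was higher and 3 lower (median -1.05), the higher one being the caveolin gene Cav1.

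Of the stem cell markers commonly read beside CD133, 3 of 13 were higher in endothelial-like cells and 9 lower, with a median of -4.42. The 3 were Nes (297 against 19.5 CPM), the nestin gene, Notch1 and Bmi1. Sox2, with 0.922 against 963 CPM, was among the 9. Of the endothelial progenitor markers 7 of 8 were higher, with a median of 5.50, among them Cd34 and Kdr, and Kit (1.06 against 14.3 CPM) was lower. The endothelial progenitor list shares Kdr, Pecam1 and Cdh5 with the markers that named the cells. In the traced ependymal-like cells 1 of 13 stem cell markers was at least 2-fold higher in midline than in remaining cells and 1 lower, where 3.21% of all genes were higher and 2.27% lower. In cycling cells the counts were again 1 and 1, where 6.72% were higher and 0.819% lower. The lower one in cycling cells was Gfap, a log2 difference of -1.07, and the higher one was Nes in both, with 34.1 CPM in midline, 20.4 CPM in cycling and 4.28 CPM in remaining cells. Pax6, a gene of lateral progenitor domains, was the lower one in midline cells (10.2 against 184 CPM).

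Prom1 lies on the minus strand of chromosome 5 of the mouse genome (GRCm38, the build called mm10), at chr5:43993620-44102032, over 108413 bases. GENCODE annotates 19 transcripts, 12 of them protein-coding, with up to 28 exons. The coding transcripts have 6 different 3′ ends and 9 different 5′ ends, and since 3′ counts were summed over the gene, isoforms could not be told apart. The same-strand transcript Gm42716 (chr5:44068198-44090854) lies within the gene, and Gm16401 (chr5:44100442-44102515) overlaps its 5′ end on the opposite strand. Gm42716 had 4.18 CPM and Gm16401 0.813 CPM in non-traced endothelial-like cells, and reads in the shared stretches are uncertain between the genes.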

How the data were processed

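Spinal cord cells of 2 sorted samples were analysed, with 1 library each. The authors aligned reads to mm10 with Cell Ranger 3.0.2 (STAR 2.5.1b, per the submitters' processing notes) and deposited, for each cell barcode and gene, whole-number counts of UMIs with no normalization. Groups follow the labels. Cells were clustered with scanpy 1.11.5 (2000 variable genes without Prom1 or the reporter rows, 20 components, 15 neighbours, Leiden resolution 1). A cluster was named for a class when at least 3 of its markers were found in at least 50% of its cells, and clusters with markers of 2 classes were set apart as mixed droplets. Endothelial-like and ependymal-like cells were clustered again and named for a subtype when at least 3 listed markers were 1.5-fold higher than in the other cells of the class. The remaining endothelial-like clusters were called capillary when at least 50% of the capillary markers were 1.5-fold above arterial and venous cells. Mural-like cells were cut at 10% of the median endothelial share of endothelial-like cells. Names rebuilt here may differ from those of the study.

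Levels are summed UMIs per 1000000 UMIs (CPM) with exact intervals. Differences are on the log2(CPM + 1) scale over genes with at least 10 CPM in either group, and at least 2-fold counted as called. Shares were thinned to 1000 UMIs per cell. No test was made, since each group is 1 library. The formulas for differences and thinning, written out a second time, were checked on simulated counts with known answers. The genes named are Prom1, the marker and related lists, the 10 genes most correlated with Prom1 among those with at least 20 CPM in any group, and the leading genes of clusters. The gene, the lists and the comparisons were chosen with earlier results of these data known. Scrublet's own threshold called 0 doublets in either library and was taken as not having worked. The deposited cells were used with no further filter.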

Additional observations from a re-analysis of the deposited data

How the results depend on the processing

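The differences of Prom1 on the log2(CPM + 1) scale were computed again under other clusterings, filters and pseudocounts, and none of those computed again changed sign. The order of capillary cells and endothelial-like cells with no subtype name was not among them. It reversed at Leiden resolution 1.5, with 334 CPM in the former and 393 CPM in the latter. The arterial difference from capillary cells (0.10) became 0.14 after Seurat integration and 0.019 at Leiden resolution 1.5. The venous difference from capillary cells (-0.25) became -0.29 with both libraries clustered jointly and -0.30 in cells with Xist UMIs. The mural difference from capillary cells (-4.46) became -5.99 once cells with a second class's markers were left out, which kept 56 cells and 1 Prom1 UMI. In cells with Xist UMIs the ependymal difference from endothelial-like cells (-3.69) became -3.36, the traced difference from non-traced ependymal-like cells (-1.27) became -1.60, and the cycling difference from remaining traced cells (1.83) became 1.19 from 5 UMIs in 24 cells. The non-traced midline difference (0.76) became 1.61 in cells with no endothelial UMI, from 7 and 4 UMIs. Of the 10 genes most like Prom1, 1 was also found by rank correlation and 9 with a minimum of 50 CPM. The causes were not tested. The filter on Scrublet calls was not run because 0 cells were called, and leaving out the 5% highest scores in its place (1738 cells), the split by Xist and some other filters were chosen after seeing the data. No replicate could be left out, and no paired analysis was possible because each group is 1 library. The 16 non-traced cycling cells held 1 Prom1 UMI, and their number of cells limits what can be compared.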

Other observations

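Droplets with markers of 2 classes made up part of the non-traced library, and their Prom1 levels lay below the 335 CPM of endothelial-like cells. The 2921 droplets with endothelial and mural markers had 288 CPM (282 to 294) and 15.3 Prom1 UMIs per 1000 endothelial UMIs. The 784 droplets with ependymal and endothelial markers had 186 CPM (178 to 194) and 15.2 per 1000. The 129 droplets with endothelial and astrocyte markers had 136 CPM (117 to 156) and 15.5 per 1000, and the 106 with endothelial and haemoglobin transcripts had 205 CPM (179 to 233) and 13.3 per 1000. The endothelial-like cells without a second class had 14.3 per 1000. These mixed droplets held 13.7%, 2.94%, 0.274% and 0.322% of the Prom1 UMIs of their library. In the traced library 44 cells with a median of 1650 UMIs took no class name and held 2 Prom1 UMIs.

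Prom1 was also set against the interferon list (Ifit1, Ifit3, Isg15, Irf7, Rsad2, Gbp2 and Tgtp1), which names the interferon-responding cells. In non-traced endothelial-like cells it had 314 CPM (306 to 321) in the 3153 cells below 250 CPM of that list and 351 CPM (342 to 360) in the 2154 cells between 2500 and 5000 CPM. The 327 cells between 5000 and 10000 CPM had 320 CPM (296 to 345), and the 35 cells above 10000 CPM had 356 CPM (288 to 435). Each of these intervals overlapped that of the bin before it, so no rise or fall beyond counting error was seen above 2500 CPM.

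Non-traced midline cells with Xist UMIs had 55.9 CPM (39.2 to 77.4, 36 UMIs, 92 cells), and those with Y-linked UMIs had 28.8 CPM (20.1 to 40.1, 35 UMIs, 157 cells). The intervals overlapped narrowly. The traced midline cells showed 25.9 and 26.3 CPM for the same split.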
